A study of Mus musculus with 6 samples.

Results

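The genes described here are the immediate early genes Fos, Fosb, Jun, Junb, Jund, Egr1, Atf3, Ier2, Nr4a1 and Klf4, which were chosen by symbol. All 10 were found among the 24568 gene symbols of the deposited table. The table holds UMI counts, that is, counts of distinct captured transcripts, of single cells from fetal mouse small intestine. Cells came from the Pdgfra-H2BGFP line on C57/BL6, in which the nuclei of cells that express Pdgfra carry green fluorescent protein. One experimental day used embryos of E15.5 and E16.5 and the other embryos of E13.5, E14.5 and E18.5. Each day gave 2 samples of live cells, sorted as negative for DAPI and Ter119, and 1 enriched sample, in which cells positive for CD31, CD45, Epcam or high PDGFRa reporter were collected. From 2 to 4 embryos were pooled per age, and every sample went through enzyme digestion at 37 degrees for 30 minutes and then 30 minutes of staining on ice.

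No label ties a cell to a sample, so the 6 barcode suffixes served as technical sets. They are called A1, A2 and A3 (suffixes that end in _1) and B1, B2 and B3 (suffixes that end in _2). All values describe 1 pooled matrix. No test between conditions was possible. Every interval is a 95% interval that covers counting error only and not the spread between cells, embryos or libraries. Counts of these genes varied more between cells than counting error alone gives, so intervals of levels and ratios are too narrow. Intervals that excluded a value or did not overlap are therefore a description and not a test. Levels are given as CPM, that is, UMIs of a gene scaled to a common total of UMIs of the same cells.

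Immediate early genes are transcribed within minutes of a growth factor, stress or calcium signal, from factors already present in the cell. The signal reaches the promoter through MAP kinases that act on serum response factor and its ETS partners and on CREB, and the transcripts are short-lived. FOS proteins pair with JUN proteins to form the AP-1 factor, EGR1 is a zinc finger factor that binds GC-rich sites, and ATF3 is a stress-induced partner of JUN proteins. NR4A1 is an orphan nuclear receptor, KLF4 is a zinc finger factor known in gut for its part in epithelial differentiation, and IER2 is a small nuclear protein. Warm enzymatic digestion is known to induce many of these genes, and every sample analysed here was digested, so levels from the tissue and from the digestion cannot be told apart.

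Promoter windows of RefSeq (GRCm38.p6) were matched for 8 of the 10 genes, all but Egr1 and Ier2. The 250 bases before the start are shown for Fos, and for Fosb and Junb, whose counts followed those of Fos most closely from cell to cell. Fosb and Junb followed each other less closely. The bases are also shown for Klf4, whose counts followed the others least across cells but are sparse, so that its low values say little. Capitals mark matches to TGACG (the core of the CREB site), TATAAA or the EGR site GCGGGGGCG on either strand. The windows are chr12:85473640-85473889 (plus strand) for Fos, chr7:19310046-19310295 (minus strand) for Fosb, chr8:84978749-84978998 (minus strand) for Junb and chr4:55532476-55532725 (minus strand) for Klf4. In the GENCODE annotation the gene spans are chr12:85473890-85477273 for Fos, chr7:19302696-19310051 for Fosb, chr8:84974484-84978718 for Junb and chr4:55527143-55532466 for Klf4, so the windows lie at their 5′ ends.
Fos: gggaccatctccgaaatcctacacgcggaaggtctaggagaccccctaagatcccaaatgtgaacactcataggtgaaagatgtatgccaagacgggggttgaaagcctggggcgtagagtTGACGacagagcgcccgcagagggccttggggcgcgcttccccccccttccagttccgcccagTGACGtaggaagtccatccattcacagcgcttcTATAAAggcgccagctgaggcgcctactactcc
Fosb: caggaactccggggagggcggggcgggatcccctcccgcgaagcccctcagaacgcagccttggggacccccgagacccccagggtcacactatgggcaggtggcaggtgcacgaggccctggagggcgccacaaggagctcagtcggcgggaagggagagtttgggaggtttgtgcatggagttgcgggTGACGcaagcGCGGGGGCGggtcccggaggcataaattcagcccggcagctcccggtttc
Junb: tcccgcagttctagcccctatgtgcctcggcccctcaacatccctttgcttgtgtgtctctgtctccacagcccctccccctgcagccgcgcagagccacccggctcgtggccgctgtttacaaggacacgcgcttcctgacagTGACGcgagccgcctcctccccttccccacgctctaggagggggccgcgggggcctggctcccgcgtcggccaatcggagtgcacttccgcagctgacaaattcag
Klf4: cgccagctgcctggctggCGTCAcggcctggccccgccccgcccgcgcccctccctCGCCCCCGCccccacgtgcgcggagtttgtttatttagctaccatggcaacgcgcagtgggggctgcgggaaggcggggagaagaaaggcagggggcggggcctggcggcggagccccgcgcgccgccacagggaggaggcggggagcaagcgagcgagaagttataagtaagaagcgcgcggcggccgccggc

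TGACG was found in 6 of the 8 windows, and in 17.8% of all 32851 RefSeq windows of the same length. Its first base lay 129 and 66 bases before the start of Fos, 60 before that of Fosb and 106 before that of Junb. GCGGGGGCG was found in 3 of 8, those of Fosb, Nr4a1 and Klf4, and in 2.57% of all windows. TATAAA was found in the Fos window, 33 bases before the start, in none of the other 7 and in 12.4% of all windows. The CArG box of serum response factor, the full CREB site TGACGTCA, of which TGACG is a part, and the AP-1 site TGANTCA were in 0 of 8, and in 1.47%, 1.55% and 6.75% of all windows. GGAA, the core of ETS sites, was in 8 of 8 and in 93.4% of all windows. These are matches of letters in the stated windows, and further upstream sequence was not searched. Not all 8 windows lie at the GENCODE 5′ end of their gene. That of Atf3 (chr1:191183334-191183583) lies inside the gene span of 191170296-191218039. The Nr4a1 window (chr15:101266596-101266845) lies inside 101254269-101274795. For Jund the window (chr8:70697489-70697738) ends before the span begins, at 70698949.

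Of 13127 deposited cells, 12626 passed the filter, between 1178 (A3) and 2509 (B2) per set. Median depth was 12127, 13586 and 7051 UMIs per cell in A1, A2 and A3 and 4180, 4116 and 3548 in B1, B2 and B3. Both sets numbered 3 stood apart from their companions. Cells in clusters rich in Pdgfra and its companion markers made up 87.5% of A3 and 91.4% of B3, 2.03% and 1.87% of A1 and A2, and 343 of 2213 cells in B1 and 448 of 2509 in B2. The nuclear transcript Malat1 was at 48396 CPM in A3 against 15182 and 13064 in A1 and A2, and at 61172 CPM in B3 against 36211 and 37423. The 7 epithelial markers summed to 373 CPM in A3 and 115 in B3 and to between 41.6 and 54.0 in the other sets, with none of the 7 at 0 in any set. The 7 myeloid markers summed to 136 and 85.9 CPM in A3 and B3 and to at most 44.6 elsewhere. The 7 smooth muscle markers summed to 748 and 345 CPM in A3 and B3 and to between 1380 and 1875 elsewhere. Erythroid genes summed to 3786 CPM in B3, 1862 in B1 and 1798 in B2 and to at most 53.7 in the A sets. Other mesenchyme clusters held 98.0%, 98.1% and 12.5% of cells in A1, A2 and A3 and 53.1%, 53.7% and 6.74% in B1, B2 and B3. In ending B, 1414 cells lay in clusters left unnamed, among them 1 (235 cells) led by the immune genes Ptprcap, Rgs1 and Srgn. Of 6 mesenchyme markers, 6 reached 20 CPM in the A sets and 5 in the B sets. There were 22 barcode sequences present in more than 1 set, carried by 44 cells. The endings also rest on different gene lists, with 21351 symbols counted in A, 18222 in B and 17403 in both, so levels are compared within an ending.

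All 10 genes were detected in every set, and together they made up 3725, 3648 and 3820 CPM in A1, A2 and A3 and 3002, 2941 and 3161 CPM in B1, B2 and B3. The sum was therefore nearly level across the sets of an ending, while single genes were not. Fos, the founding member of the family, was at 699, 719 and 794 CPM in A1, A2 and A3 and at 653, 668 and 632 CPM in B1, B2 and B3. Fosb, its close relative, was at 83.5, 80.3 and 156 CPM in A1, A2 and A3 and at 67.5, 71.0 and 153 CPM in B1, B2 and B3. Fosb thus stood high in both sets numbered 3, which lay far above the 4 others, and Fos did not.

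Among the partners of FOS, Jun was at 604, 633 and 679 CPM in A1, A2 and A3 and at 517, 482 and 637 CPM in B1, B2 and B3. Junb, a JUN protein that dampens Jun at some targets, was at 334, 338 and 457 CPM in A1, A2 and A3 and at 494, 476 and 480 CPM in B1, B2 and B3. Jund, the member of the family that cells express most steadily, was at 578, 496 and 630 CPM in A1, A2 and A3 and at 213, 191 and 250.5 CPM in B1, B2 and B3. The JUN genes were thus higher in A3 than in A1 and A2, Jun and Jund were also higher in B3 than in B1 and B2, and Junb was level across the B sets.

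Egr1 and Nr4a1 had the opposite order. Egr1 was at 754, 726 and 499 CPM in A1, A2 and A3 and at 630, 636 and 525 CPM in B1, B2 and B3. Nr4a1 was at 82.2, 75.2 and 61.1 CPM in A1, A2 and A3 and at 51.9, 51.6 and 36.5 CPM in B1, B2 and B3. Both were lowest in the set numbered 3 of their ending, and the intervals of that set did not overlap those of its companions.

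Klf4 was at 17.1, 14.5 and 28.0 CPM in A1, A2 and A3 and at 19.3, 18.4 and 47.2 CPM in B1, B2 and B3. Atf3 was at 37.1, 32.9 and 44.9 CPM in A1, A2 and A3 and at 48.3, 49.5 and 56.1 CPM in B1, B2 and B3. Ier2 was at 536, 533 and 472 CPM in A1, A2 and A3 and at 308, 298 and 344 CPM in B1, B2 and B3. Klf4 thus shared the pattern of Fosb, and Ier2 was lower in A3 but higher in B3 than in the other sets of its ending. Sets 1 and 2 of an ending, which differed little in makeup, differed from each other by at most 0.23 on the log2 scale for any of the 10 genes.

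**Figure D1:**
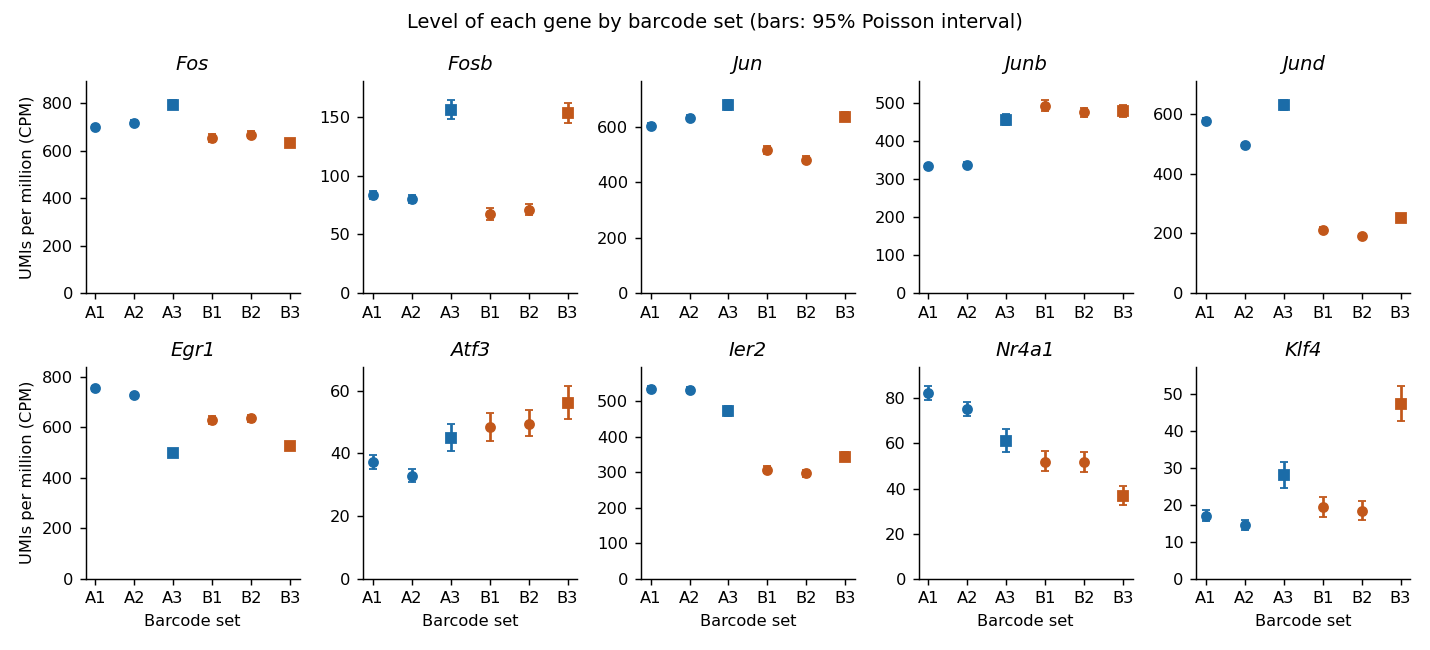
Level of each of the 10 genes (y axis, CPM from 0) in the 6 barcode sets (x axis), with 95% Poisson intervals; circles are sets 1 and 2, squares set 3, blue is ending A and orange ending B. Fosb and Klf4 are highest in A3 and B3 of their endings, and Egr1 and Nr4a1 are lowest there.

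Set 3 was then compared with sets 1 and 2 together. Fosb was higher in set 3 by 0.93 (0.84 to 1.01) on the log2 scale in ending A and by 1.14 (1.04 to 1.25) in ending B. Klf4 was higher by 0.82 (0.62 to 1.02) and 1.32 (1.12 to 1.53). Egr1 was lower, with log2 ratios of -0.57 (-0.61 to -0.53) and -0.27 (-0.32 to -0.22), as was Nr4a1, with -0.37 and -0.50. The 6 other genes had ratios between -0.18 and 0.44 in ending A and between -0.06 and 0.35 in ending B. Their directions were the same in both endings for Jun, Jund and Atf3, which were higher in set 3 over all cells, and opposite for Fos and Ier2, while the interval of Junb in ending B included 0.

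A gene counted as different when it was 2-fold or more apart with at least 20 CPM in the higher group. In ending A this held for 0 of the 10 genes upward and 0 downward, where 9.65% and 5.61% of all 7420 genes that reached 20 CPM in either group were higher and lower. In ending B it held for 2 upward, Fosb and Klf4, and 0 downward, where 8.58% and 5.38% of 6410 genes were higher and lower. The median log2 ratio of the 10 genes was 0.20 in ending A and 0.19 in ending B, and that of all genes tested was -0.05 and 0.12. The summed level was higher in set 3 by 0.05 (0.03 to 0.07) in ending A and by 0.09 (0.07 to 0.11) in ending B. In ending A that sum was lower in set 3, with a log2 ratio of -0.18, among cells with no UMI of the cycling genes Mki67 or Top2a. These UMIs were counted at full depth, which differs between the sets. Such a UMI was found in 68.5%, 70.5% and 41.3% of cells in A1, A2 and A3, so unlike shares were removed. The part of depth in the ratio of -0.18 was not tested. Over all cells the ratio was -0.01 when UMIs of mitochondrial and ribosomal protein genes were left out of the scaling.

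The sets also differ in cell makeup, so the comparison was repeated within classes of clusters. The clustering left out the 10 genes and their companion lists, and classes were named from marker genes. Clusters are called cA1 to cA17 in ending A and cB1 to cB11 in ending B. In ending A the PDGFRA-high class held 1031 cells of A3 and 89 of A1 and A2, and the other mesenchyme held 147 and 4457. Within the PDGFRA-high class of ending A the sum was at 4026 CPM in A3 and 5003 in A1 and A2, a log2 ratio of -0.31 (-0.36 to -0.27). Within the other mesenchyme it was at 3019 and 3670 CPM, a ratio of -0.28 (-0.32 to -0.24). The classes do not hold the same clusters in each set, however. Of the 147 other mesenchyme cells of A3, 90 lay in cA12, the cluster with the lowest sum, against 143 cells of A1 and 61 of A2. Within cA12 the sum was at 2720 CPM in A3 and at 2441 and 2509 in A1 and A2, so the direction within the class was not that within its main A3 cluster. Cells of A3 in the PDGFRA-high class lay in clusters cA3, cA8 and cA13 (535, 313 and 183 cells), those of A1 in the same clusters (22, 15 and 13) and those of A2 likewise (17, 17 and 5).

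Within the PDGFRA-high class the excess of Fosb and Klf4 in set 3 was not seen in ending A and was small in ending B. Fosb was at 180 CPM in A3 and 214 in A1 and A2 of that class (log2 ratio -0.25, -0.48 to -0.01), and at 159 in B3 and 140 in B1 and B2 (0.18, 0.02 to 0.35). Klf4 was at 25.8 CPM against 38.2 in ending A (-0.56, -1.12 to 0.04) and at 49.9 against 46.4 in ending B (0.11, -0.19 to 0.41). In the 147 cells of other mesenchyme of B3, Fosb was at 125 CPM against 65.1 (0.94, 0.62 to 1.25). These cells lay in cB3, cB9, cB8 and cB2 (58, 46, 32 and 11 cells), whereas cB2 held 520 cells of B1 and 638 of B2. In the 147 such cells of A3, Klf4 was at 36.3 CPM against 15.6 (1.22, 0.85 to 1.58) and Fosb was lower (-0.35).

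The deficit of Egr1 in set 3 was smaller or turned within classes. Its ratio within the PDGFRA-high class was -0.10 (-0.25 to 0.06) in ending A and 0.26 (0.16 to 0.35) in ending B, and within other mesenchyme it was -0.25 and 0.23. Nr4a1 had ratios of 0.50 (-0.0016 to 1.05) and 0.31 (-0.07 to 0.71) in the PDGFRA-high class of ending A and B, and of -0.39 (-0.67 to -0.12) and -0.04 (-0.51 to 0.40) in other mesenchyme. Jund, higher in set 3 over all cells, was lower within the PDGFRA-high class (-0.47 and -0.23) and had ratios of -0.12 and -0.13 in other mesenchyme, the latter with an interval that included 0. Jun had ratios of -0.25 and 0.03 in the PDGFRA-high class and of -0.57 and -0.10 in other mesenchyme. For Atf3 they were 0.08 and -0.23 in the PDGFRA-high class and -0.15 and -0.60 in other mesenchyme. Depth, Malat1 and the summed epithelial and myeloid markers also differed between set 3 and the other sets, and their part in these ratios was not tested.

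**Figure D2:**
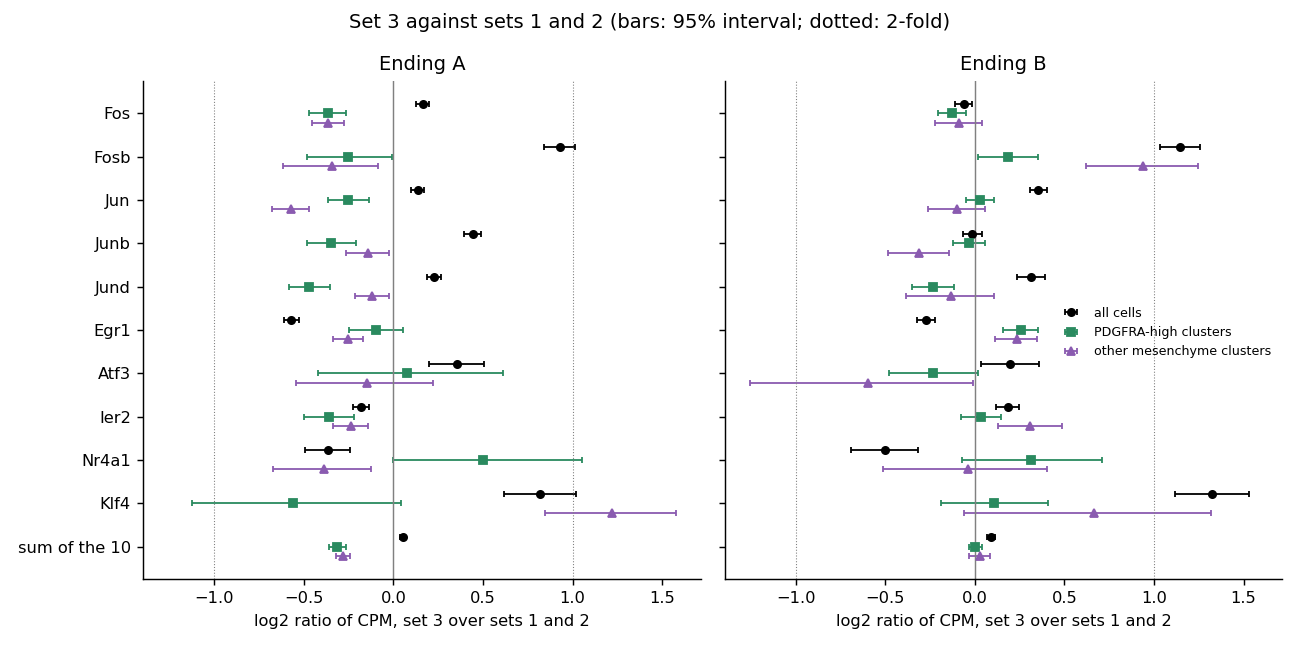
Log2 ratio of CPM in set 3 over sets 1 and 2 (x axis) for each gene and the sum of the 10 (y axis), in ending A (left) and B (right), over all cells (black circles) and within PDGFRA-high (green squares) and other mesenchyme clusters (purple triangles), with 95% intervals. Fosb reaches 0.93 and 1.14 over all cells but -0.25 and 0.18 within the PDGFRA-high clusters.

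The share of cells with at least 1 UMI depends on depth, so each cell was thinned at random to 2000 UMIs, which left 12585 cells and dropped 41 shallower ones. Before thinning, Fos was detected in 92.0%, 92.2% and 79.0% of cells in A1, A2 and A3 and in 74.7%, 74.5% and 64.9% in B1, B2 and B3. At 2000 UMIs the shares were 57.0%, 58.3% and 55.7% in A and 56.5%, 57.6% and 51.2% in B. Most of the spread between sets in the unthinned shares of Fos was thus no longer present at matched depth. Fosb was detected in 12.2%, 13.4% and 21.7% of thinned cells in A1, A2 and A3 and in 10.3%, 10.6% and 18.54% in B1, B2 and B3. Before thinning its shares had been 37.2%, 40.5% and 41.2% in A and 18.8%, 20.6% and 25.7% in B, so the excess of set 3 was larger in proportion at matched depth.

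Egr1 was detected in 65.1%, 63.9% and 46.5% of thinned cells in A1, A2 and A3 and in 57.9%, 58.6% and 50.9% in B1, B2 and B3. Before thinning the shares were 92.1%, 93.2%, 72.0%, 75.6%, 74.3% and 65.0%. Klf4 was found in 2.26% to 8.21% of thinned cells across the 6 sets (6.58% to 15.6% before thinning), highest in B3, Atf3 in 5.04% to 8.16% (13.53% to 25.1% before) and Nr4a1 in 6.18% to 15.1% (10.9% to 50.9% before). Averaged over the 10 genes and all thinned cells, a gene was detected in 34.8% of cells. No cell class known to lack these genes could serve as a gauge of free RNA, so these are shares of cells with a captured transcript and not of cells that transcribe the gene.

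The clusters showed where the genes were highest. Levels are given for the 14 clusters of ending A and the 10 of ending B that hold at least 100 cells. In ending A the sum was highest in cluster cA11, at 8978 CPM, next in cA6, at 6854, and in cA14, at 5987, and lowest in cA12, at 2528. cA11 was led by Dpt, Aspn and Mgp, genes of fibroblast matrix, cA6 by Col6a5, Wfdc1 and Lepr, and cA14 shared Col6a5 and Lepr with cA6. All 3 belong to the other mesenchyme, with Col1a1 at 8370, 4161 and 4830 CPM, where the median cluster had 816. The highest levels in ending A thus lay outside the PDGFRA-high class, with Pdgfra at 112, 94.2 and 104 CPM in these 3 and at 1243 CPM in cA3.

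In cA11 Fos was at 2916 CPM, against a median of 529 over the 14 clusters and 348 in cA12. Fosb was at 351 CPM there (median 57.0), Jund at 1459 (median 477) and Egr1 at 1337 (median 594). Both sets that supply the cluster were high: Fos was at 2962 CPM in the 166 cells of A1 and 2926 in the 146 of A2, and Fosb at 393 and 313 CPM. In cA14 the sets were less alike. There the sum was at 5003 CPM in 82 cells of A1 and 7167 in 69 of A2, and Fos at 1214 and 2174 CPM. The next clusters by Fosb and by Fos differed: Fosb was second in the PDGFRA-high cluster cA3, at 265 CPM, and Fos in cA6, at 1677 CPM. The cells of cA11 and cA6 had a median of 8357 and 8365 UMIs, below the sets' own medians.

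The 3 PDGFRA-high clusters of ending A were unlike each other. Fos was at 1091 CPM in cA3, 986 in cA8 and 379 in cA13, Fosb at 265, 171 and 45.9, and Jun at 906, 944 and 288, the lowest of the 14. In cA3 and cA8, 7 and 6 of the 7 epithelial markers were 4-fold or more above the other cells of the ending, and their part in these levels was not tested. cA13, led by Aplnr and Bmp3, with Gadd45a and Plk2 also among its top genes, had Fos, Fosb and Jun below the cluster medians, and Junb and Jund slightly above them, at 311 and 509 CPM against 304 and 477. Pdgfra was at 579 CPM there. In ending B the PDGFRA-high clusters were also unlike each other. cB5, led by Ankrd63, Npnt and Col4a4, had Fos at 1007 CPM, Fosb at 329, Jun at 837 and Klf4 at 79.6, each the highest of the 10 clusters. cB4, with Kcnk13 and Gadd45a at the head of its list, had Fos at 348 CPM, the lowest of the 10, and Fosb at 75.8. Pdgfra was at 306 CPM in cB4, against 398 in cB1 and 602 in cB5. It was not among the 5 markers that were 2-fold higher in cB4. That cluster therefore leaves the PDGFRA-high class where Pdgfra is a required marker. The summed level ran from 4054 CPM in cB5 to 2263 in the unnamed cluster cB10, a narrower range than in ending A. In cB5 Fosb was at 302, 320 and 333 CPM in the cells of B1, B2 and B3, so the level of the cluster was alike in its 3 sources.

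Not all members followed the FOS genes. Ier2 was highest in cA7, led by the mitotic genes Aurka and Ube2c, at 659 CPM, and lowest in cA14, at 313. Nr4a1 was highest in cA2, at 142 CPM, and in cB8 and cB2, at 76.4 and 74.0 CPM. Egr1 was highest in cB8 and cB2 among the clusters of ending B, at 991 and 854 CPM, both of which are rich in Col1a1 (3539 and 5409 CPM), and lowest in cB3, at 401 CPM. Klf4 was highest in cA6 and cA14 of ending A, at 38.7 and 37.8 CPM, while in ending B it was highest in 2 PDGFRA-high clusters, cB5 and cB1 (44.8 CPM).

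The highest over the lowest cluster was 11.9-fold for Fosb and 8.38-fold for Fos in ending A, where the median of genes with at least 20 CPM in every cluster was 1.92-fold. The ranges of Fosb and Fos exceeded those of 98.5% and 97.3% of these 4746 genes. Ier2 had 2.103-fold, more than 61.2% of them. In ending B Fosb had 7.09-fold, more than 98.1% of 4082 genes, whose median was 1.78-fold, and Junb had 1.38-fold, more than 9.04% of them. Clusters differ in depth, Malat1 and cycling share as well, and the part of these in the levels was not tested. Malat1 was at 25106 CPM in cA11, 62884 in cA3, 85194 in cB5 and 21154 in the unnamed cluster cB7.

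Across clusters, as a description over points that share libraries and differ in depth, log levels of Egr1 followed those of Col1a1, with r of 0.87 over 14 clusters in ending A and 0.83 over 10 in ending B. Those of Fosb had r of 0.71 and -0.40 with Col1a1, and 0.70 and 0.84 with Malat1. Klf4 had 0.71 and 0.97 with Malat1, and Egr1 had -0.10 and -0.45. With Malat1, Jund had 0.62 and 0.93, Jun 0.42 and 0.80 and Junb 0.71 and 0.30. Fosb and Klf4 thus followed Malat1 in both endings, as Jund did, so this was not particular to them. In ending A Fosb followed Col1a1 as closely as Malat1. Egr1 followed Col1a1 in both endings, and Nr4a1 did in ending B (0.92) but little in ending A (0.16).

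**Figure D3:**
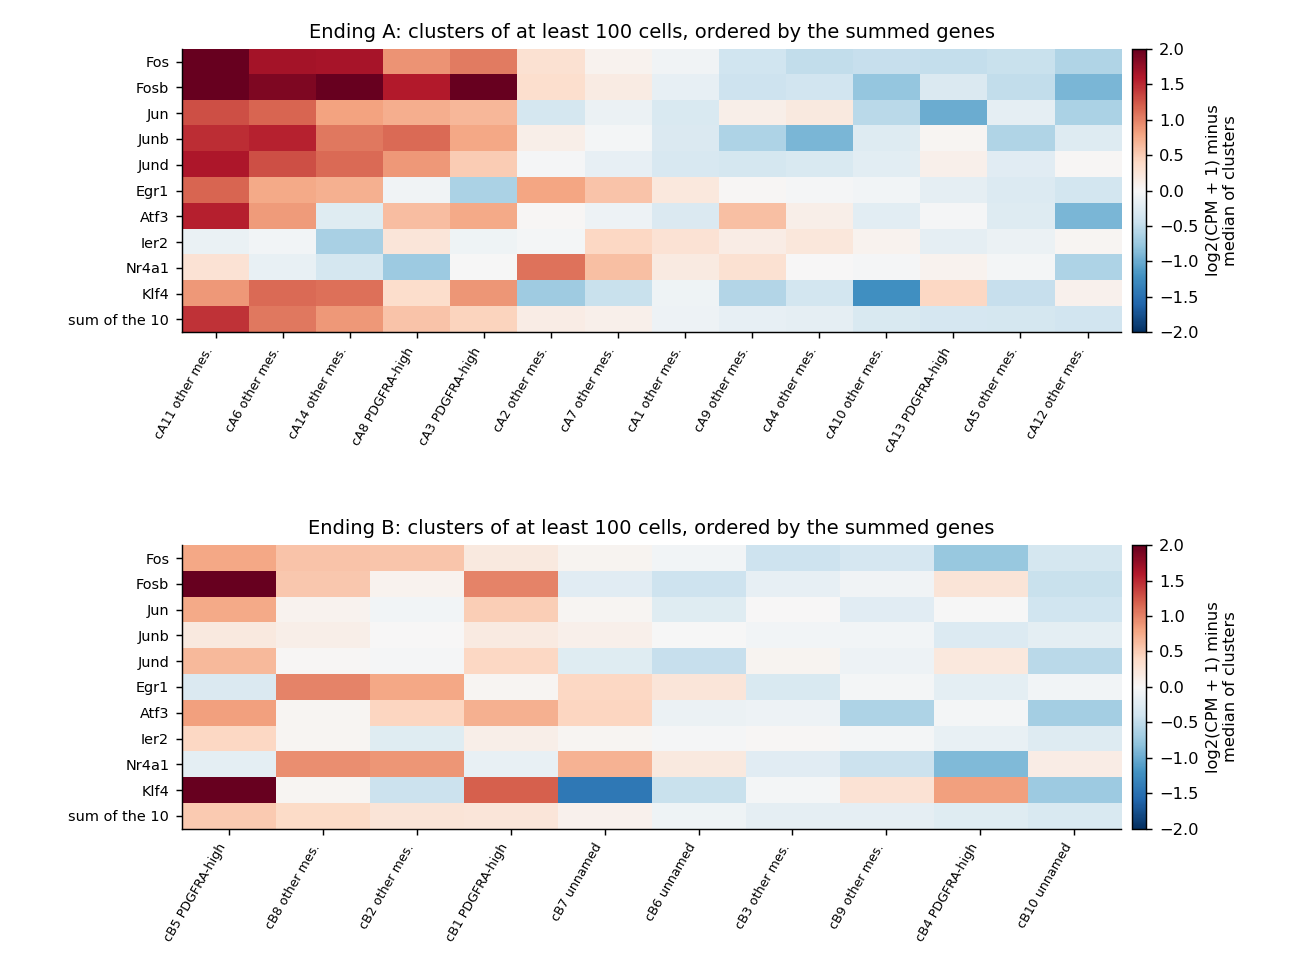
Level of each gene (rows, log2 of CPM plus 1, minus the median over clusters, red high and blue low) in the clusters of at least 100 cells (columns, ordered by the sum), in ending A (top) and B (bottom). Fosb and Fos are highest in cA11 and cB5, at 351 and 329 CPM and at 2916 and 1007 CPM, and Ier2 spans 2.103-fold in ending A.

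Summed over clusters, the PDGFRA-high class was compared with the other mesenchyme of the same ending. Fosb was at 183 against 79.7 CPM in ending A (log2 ratio 1.20, 1.12 to 1.28) and at 154 against 68.9 CPM in ending B (1.16, 1.04 to 1.28). Its ratio was above 0 in each of the 6 sets, from 0.35 in B3 to 1.63 in A2. Egr1 was at 470 against 740 CPM (-0.65) and at 466 against 718 CPM (-0.62), and its ratio was below 0 in each of the 6 sets, from -0.85 in B2 to -0.42 in A3. Fosb and Egr1 thus differed between the classes in opposite directions in all 6 sets.

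Jun and Jund were also higher in the PDGFRA-high class in all 6 sets, with ratios of 0.32 and 0.45 for Jun and 0.38 and 0.41 for Jund by ending. Ratios of Atf3 (0.46 and 0.45 by ending) and Junb (0.62 and 0.06) were above 0 in all 6 sets too. The interval of Atf3 included 0 in A1 and A2, and that of Junb in B1 and B2. Klf4 was higher by 0.74 and 1.47 but was lower within A3 (-0.49). Nr4a1 had ratios of -0.40 and -0.90, with 0.02 (-0.28 to 0.33) within A3, and Fos was 0.34 in ending A and -0.13 in ending B, directions that turned at resolution 2 (-0.017 and 0.090), and in ending B also with Pdgfra among the markers required (0.29). The sum was higher in the PDGFRA-high class by 0.17 (0.16 to 0.19) in ending A and by 0.05 (0.03 to 0.07) in ending B. Within single sets the sum's ratio was 0.35 in A1, 0.56 in A2 and 0.42 in A3, each above the pooled 0.17, and at finer clustering (resolution 2) the pooled ratio of ending A was -0.04. The size of the sum's difference in ending A thus depended on how cells were pooled and classed.

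The same question was asked without clusters, by the Pdgfra UMIs of each cell at 2000 UMIs. Cells with 2 or more Pdgfra UMIs numbered 120, 66, 629, 90, 116 and 455 in A1, A2, A3, B1, B2 and B3, and cells with 0 numbered 1849, 1638, 263, 1808, 2022 and 1014. These classes are ranges of a count and not cell types. PDGFRA-high clusters held 58.9% of the upper class in B1 and 9.46% of the lower one, but 22.5% and 0.65% in A1.

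Fosb was at 56.1 CPM in B1 cells with 0 Pdgfra UMIs, at 91.1 with 1 and at 211 with 2 or more, a log2 ratio of 1.91 (1.37 to 2.42) between the outer classes. In B2 the levels were 57.1, 101 and 207 CPM (1.86, 1.38 to 2.31), and in A3 they were 108, 187 and 201 CPM (0.89, 0.47 to 1.33). The level of Fosb thus increased with each step of Pdgfra UMIs in these 3 sets, and also in B3, from 141 to 160 and 186 CPM (0.40, 0.11 to 0.68). In A2 it was at 98.6, 82.9 and 159 CPM (0.69, -0.02 to 1.33) and in A1 at 96.8, 68.4 and 66.7 CPM (-0.54, -1.36 to 0.18), so these sets showed no such order. In A3, B1, B2 and B3 the Fosb ratio stayed above 0 in all 7 alternatives tried, with extremes of 0.17 in B3 and 2.22 in B1.

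Klf4 had log2 ratios of 1.52 (0.33 to 2.54) in B1, from 63 and 9 UMIs, and 1.15 (-0.13 to 2.21) in B2. In A3 and B3, whose upper class held the most Klf4 UMIs (38 and 51), the ratios were -0.01 (-0.89 to 0.93) and 0.29 (-0.23 to 0.80). In A1 and A2 the upper class held 2 Klf4 UMIs each, with ratios of -1.18 (-4.26 to 0.72) and 0.11 (-2.98 to 2.04), which leave the direction undetermined. Egr1 had ratios below 0 in all 6 sets, of -0.05, -0.47 and -0.19 in A1, A2 and A3 and -0.30, -0.60 and -0.09 in B1, B2 and B3. Their intervals excluded 0 in A2, B1 and B2. Across the 6 sets the Egr1 ratio was also below 0 in all 7 alternatives for A3, B1 and B2 and reached values above 0 in at least 1 for A1, A2 and B3.

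The sum over the 10 genes had log2 ratios of -0.01, 0.03 and 0.20 in A1, A2 and A3 and 0.30, 0.29 and 0.16 in B1, B2 and B3, and a Mantel-Haenszel ratio over the sets of 0.16 (0.12 to 0.20). That value was 0.06 in another random draw of 2000 UMIs and -0.03 at 4000 UMIs per cell, so no direction is read from it. The minimum of 20 CPM was reached by 9 of the 10 genes in A1 and A2 and by all 10 in the other sets. Of these, 0 were 2-fold or more apart in A1, A3 and B3, where 10.5%, 8.4% and 1.75% of all genes tested were. In A2 it was 1, Nr4a1, lower at 5 UMIs in the upper class (-1.05, -2.69 to 0.19), where 17.8% of genes were. In B1 and B2 it was 2, Fosb and Klf4 in each, where 22.7% and 20.8% were. These shares are near the background or below it. Malat1 moved with the Pdgfra class, from 33342 to 75422 CPM in B1 and from 15774 to 23242 in A1, and median depth before thinning fell from 4298 to 3555 UMIs in B1. Their part in these ratios was not tested.

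**Figure D4:**
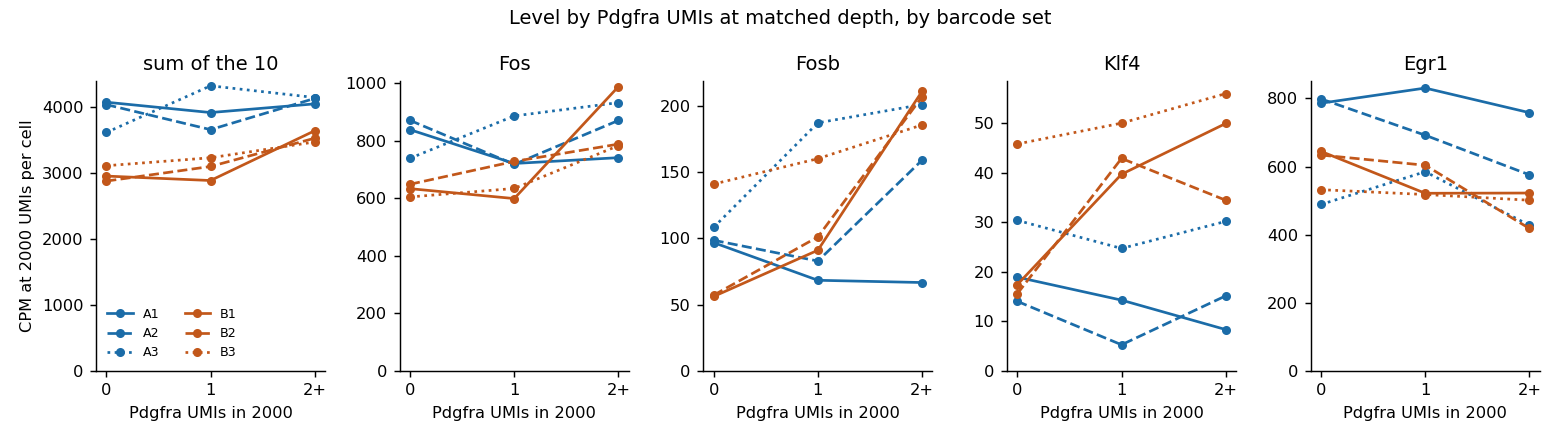
Level (y axis, CPM from 0, cells thinned to 2000 UMIs) against Pdgfra UMIs in the same cells (x axis: 0, 1, 2 or more) for the sum of the 10 genes, Fos, Fosb, Klf4 and Egr1, with 1 line per barcode set (blue ending A, orange ending B). The Fosb lines of B1 and B2 climb from 56.1 and 57.1 to 211 and 207 CPM, and that of A1 does not climb.

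Counts of these genes were more uneven from cell to cell than those of most genes. At 2000 UMIs the variance of Fos was 4.10, 4.30 and 3.93 times its mean in A1, A2 and A3 and 2.44, 2.46 and 3.09 times in B1, B2 and B3. The median of all genes of at least 50 CPM was 1.03 or 1.04 in every set, and between 99.0% and 99.7% of them were below Fos. Those genes were not matched to Fos in mean level, and the part of level in this rank was not tested. The 10% of cells with most Fos UMIs held between 40.4% and 49.2% of Fos UMIs. Jund in B1 and B2 had ratios of 1.11 and 1.11, above 79.0% and 77.7% of genes, at a thinned mean of 0.42 and 0.40 UMIs per cell against 1.29 and 1.33 for Fos.

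Pairs of genes were compared by Pearson's r across the cells of a set, on log counts at 2000 UMIs. This is a description, since the cells share libraries and clusters. The pair most alike was Fos and Fosb, with a median r over the 6 sets of 0.38 (lowest 0.25, highest 0.45), followed by Fos and Junb at 0.37, Fos and Egr1 at 0.35 and Junb and Egr1 at 0.33. Fosb and Klf4, which shared the excess in set 3, had 0.12, and Nr4a1 and Klf4 had 0.03, the lowest of the 45 pairs. In sparse counts such low values of Klf4 and Nr4a1 say little.

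Cells with a Fosb UMI had a Fos UMI in 82.6%, 82.1% and 83.9% of cases in A1, A2 and A3 and in 79.6%, 82.3% and 78.1% in B1, B2 and B3. Cells without a Fosb UMI had one in 53.5%, 54.5% and 47.8% of cases in A and in 53.9%, 54.6% and 45.0% in B. Fos was thus detected more often in cells with a Fosb UMI in every set. The median cell had UMIs of 4 of the 10 genes in the A sets and of 3 in the B sets, and 6 or more were found in 17.2%, 16.9% and 21.9% of cells in A1, A2 and A3 and in 10.2%, 10.7% and 13.7% in B1, B2 and B3.

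**Figure D5:**
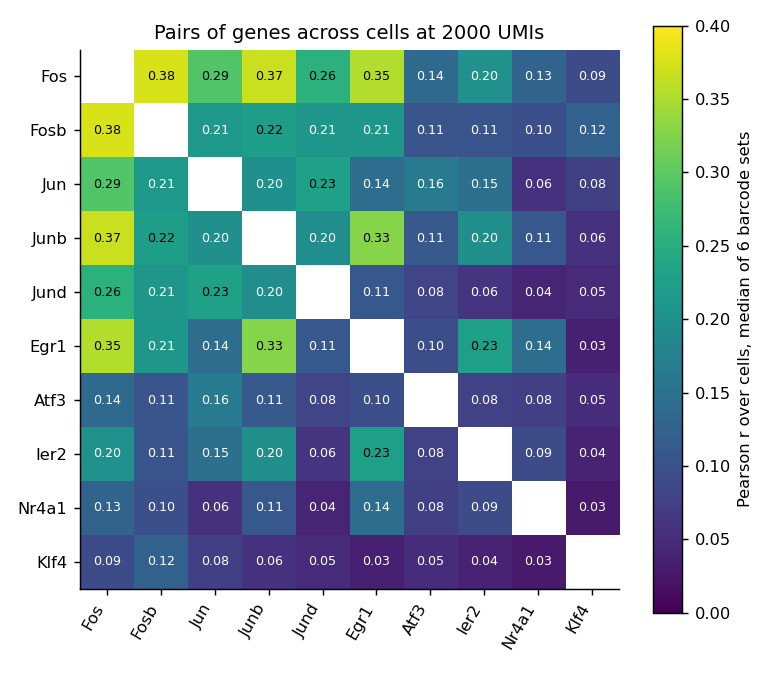
Pearson's r across cells between log counts of each pair of the 10 genes at 2000 UMIs, as the median of the 6 barcode sets (colour and printed value). Fos with Fosb, Junb and Egr1 gives 0.38, 0.37 and 0.35, and the row of Klf4 stays at or below 0.12.

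The sum also moved with the depth of the cell before thinning. With the cells of a set split into 4 groups of equal size by depth, the sum in A1 was at 5824 CPM in the shallowest group, then 4116, 3287 and 2926 in the deepest, and Fos went from 1442 to 419 CPM. In A2 the sum went from 5636 to 2964 CPM and in A3 from 4442 to 3058. In B1 and B2 it was level, from 2933 to 3085 and from 2930 to 2925 CPM. The dependence on depth was thus seen in the A sets and, from 3515 to 2830 CPM, in B3.

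Ier2 did not share it in A1, with 507 CPM in the shallowest and 543 in the deepest group. In 4 such groups by Malat1 at matched depth the sum went from 2856 to 5933 CPM in A1 and from 2824 to 3229 in B1. Fosb went from 37.4 to 197 CPM in A1, from 33.6 to 210 in A2, from 61.2 to 287 in A3, from 46.4 to 127 in B1, from 43.2 to 131 in B2 and from 72.9 to 265 in B3. Fosb was thus 2.75 to 6.26 times as high in the cells richest in Malat1 as in the poorest in each set, while Ier2 stayed between 0.86 and 1.19 times. By the mitochondrial share the sum went from 4033 to 4299 CPM in A1 and from 3173 to 2796 in B1. Cells with a UMI of Mki67 or Top2a at 2000 UMIs had 0.76 times the sum of other cells in A1, 0.82 times in A2 and between 0.92 and 1.02 times in the 4 other sets. Egr1 was at 0.86, 0.85 and 1.24 times in A1, A2 and A3 and at 1.13, 1.22 and 1.43 times in B1, B2 and B3, above that of other cells in 4 of 6 sets. Fosb was lower in cycling cells in 5 of 6 sets (0.61 to 0.90 times, with 1.04 in B3). The part of depth, Malat1 and cycling in the differences between sets and clusters was not tested.

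Outside the 10 genes, the counts most alike to the sum across cells were sought among 2265 genes of at least 50 CPM in every set, ranked by the lowest r over the 6 sets. Btg2, an antiproliferative primary response gene, came first, with r from 0.26 to 0.47 (median 0.36). Next were Socs3, the feedback inhibitor of cytokine signalling, with a median of 0.26, Nfkbia, the inhibitor of NF-kappaB, with 0.19, and Cebpd, a C/EBP factor, with 0.19. Zfp36l1, Col1a2, Pnrc1, Klf6, Mcl1 and Clk1 completed the 10, with medians from 0.09 to 0.15. Of these 10, 7 stand on the companion lists below, and Col1a2, a collagen chain, had 0.15. Those lists were chosen with earlier results of these data known, and their share of the 2265 genes was not counted. The overlap is therefore no independent result. The median gene had an r of -0.01.

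The companion lists were compared between set 3 and sets 1 and 2 in the same way. Of other primary response genes, 26 reached 20 CPM in ending A, where 8 were 2-fold or more higher and 1 lower (median log2 ratio 0.29), and 27 in ending B, where 6 were higher and 2 lower (0.70). Gadd45a, a stress and cell cycle checkpoint gene, had the highest ratio in ending A, with 29.2, 27.8 and 212 CPM in A1, A2 and A3 (2.89). Id2, an inhibitor of basic helix-loop-helix factors, had the highest in ending B, with 99.1, 116 and 483 CPM (2.16). Myc was lowest in ending A, with 27.7, 25.8 and 9.15 CPM (-1.55), and Ccn1, a matrix protein under serum response factor and YAP, in ending B, with 194, 187 and 62.4 CPM (-1.61). The list thus held larger differences in both directions than the 10 genes themselves. Of all genes tested, 9.65% and 5.61% were 2-fold or more higher and lower in ending A, and 8.58% and 5.38% in ending B. The companion lists were compared over all cells only. Id2 was at 677, 227 and 172 CPM in the PDGFRA-high clusters cA3, cA8 and cA13. In the other mesenchyme clusters cA1, cA2 and cA12 it was at 60.3, 41.9 and 159 CPM. The part of cell makeup in the ratios of these lists was not tested.

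Of feedback inhibitors of MAP kinase, cytokine and NF-kappaB signalling, 9 of 11 were higher in set 3 in ending A, 2 of them 2-fold or more, and 9 of 9 in ending B, none 2-fold. Spry2, an inhibitor of receptor tyrosine kinase signalling, was at 32.7, 31.1 and 109 CPM in A1, A2 and A3 (1.77), and the phosphatase gene Dusp5 was lowest in ending A, with -0.70. In ending B the extremes were Spry4 (0.98) and Nfkbia (0.22). The median was 0.49 in ending A and 0.60 in ending B, above those of all genes tested, -0.05 and 0.12.

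Of all genes tested, 3455 of 7420 were higher in set 3 in ending A and 3718 of 6410 in ending B. Of upstream factors and kinases, 6 of 13 were higher in set 3 in ending A and 11 of 13 in ending B, none 2-fold either way. Mapk3, which encodes ERK1, had the highest ratio in both endings (0.66 and 0.76), and Srf, which encodes serum response factor, the lowest (-0.94 and -0.51). Srf was at 34.1, 30.1 and 16.8 CPM in A1, A2 and A3 and at 33.8, 33.4 and 23.5 CPM in B1, B2 and B3.

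Heat shock genes, which mark protein damage and heat, were split. The inducible Hspa1b had the highest ratio in ending A, with 8.47, 7.93 and 44.2 CPM in A1, A2 and A3 (2.43), and Hspb1 in ending B, with 33.8, 35.1 and 78.2 CPM (1.18). The lowest were Hsph1 in ending A (-0.99) and Hspd1, a mitochondrial chaperonin, in ending B (-0.83). Hsp90ab1, the heat shock gene of highest level, was at 3398, 3724 and 2354 CPM in A1, A2 and A3 and at 3090, 2971 and 2877 CPM in B1, B2 and B3. Of the list, 3 of 12 genes were higher in set 3 in ending A, all 3 by 2-fold or more, and 3 of 11 in ending B, 2 of them 2-fold, with medians of -0.42 and -0.12. Few heat shock genes were thus higher in set 3. In ending A these were Hspa1a (2.03), Hspa1b and Hspb1 (2.20). In ending B they were Hspa1a (1.03), Hspb1 and Dnajb1 (0.13, with an interval that included 0). Hsp90ab1 was lower in set 3 in ending A (-0.59) and by little in ending B (-0.07).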

How the data were processed

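The authors deposited 1 matrix of raw UMI counts per gene and cell with lists of genes and barcodes, as the file header and whole-number values show. Cell Ranger 2.1.1, Seurat and the build mm10 are named in the submitters' processing notes, without their roles. Libraries were MULTI-seq samples on 10x 3′ v3 chemistry, per the labels. The members and gene lists were chosen with earlier results of these data known.

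Cells with under 1000 genes (108) or over 5% mitochondrial UMIs (367) were left out, and Scrublet removed 62 doublets, 0.489% of passing cells. In ending A it called 0.313% of 5742, so doublets there are best seen as not removed. Each ending was clustered apart in scanpy 1.11.5 (2000 variable genes, 30 components, 15 neighbours, leidenalg 0.10.2, resolution 1). A PDGFRA-high cluster had 3 or more of 9 markers 2-fold higher than other cells, another type 3 markers 4-fold higher and 2 among its top 10 genes, and other mesenchyme 3 mesenchyme markers at 100 CPM. This scoring was set after seeing the data. Clusters holding 1414 cells stayed unnamed, 3 in ending B.

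Ratios have exact conditional binomial intervals, except the Mantel-Haenszel ratio, whose interval is a normal approximation on the log scale. Levels have Poisson and shares Clopper-Pearson intervals (scipy 1.17.1), and reads sharing a library are not independent embryos. UMIs of the same cell are not independent either. No count model was fitted, since the matrix has no replicates. The ratio, the 2-fold rule and the thinning were tested on simulated data. Those data held no spread between cells beyond counting error, so their interval coverage does not carry over to these genes. Companion genes named are those with the highest and lowest ratio of each list and the heat shock gene of highest level. Other alternatives are listed in the closing section, and the within-class comparison, Pdgfra as a required marker and leaving out cluster cA11 were added after seeing the data. Promoter windows are from RefSeq on GRCm38.p6 and gene starts from GENCODE vM21.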

Additional observations from a re-analysis of the deposited data

How the results depend on the processing

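No paired analysis was possible because no label ties a barcode set to a sample and the result comes from no test.

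For the summed genes in set 3 against sets 1 and 2, the log2 ratio of ending A (0.05) was -0.18 without cycling cells, -0.0055 with scaling that leaves out mitochondrial and ribosomal protein genes, -0.31 in PDGFRA-high and -0.28 in other mesenchyme clusters, 0.0015 as the mean of per-cell CPM, 0.021 when thinned, 0.013 without Jund and Klf4 and 0.022 without Fos. That of ending B (0.09) was 0.13 when thinned, 0.063 without cycling cells, 0.017 with the other scaling, 0.059 without Jund and Klf4, 0.13 without Fos, and 0.0014 and 0.027 in the cluster classes. With set 1 or set 2 alone as reference, both endings kept their direction. Cycling cells here are those with a UMI of Mki67 or Top2a before thinning, which depends on depth. Without them, Fos, Jun and Jund in ending A were at -0.23, -0.018 and -0.11. The count of genes 2-fold apart in ending A (0) was 2 at 1.5-fold and 1 in other mesenchyme clusters, and in ending B (2) it was 0 within each class. The other alternatives left these counts as they were.

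By Pdgfra UMIs, the pooled ratio of the sum (0.16) was 0.018 at 1000 UMIs, -0.025 at 4000, 0.042 with 1 or more UMIs as the upper class and 0.057 in another draw. The 5 gene-by-set values that were 2-fold apart became 13 at 1000 UMIs, 3 at 4000, 8 without cycling cells and 11 at 1.5-fold. At 1000 UMIs the sum was at -0.0089 in A3 and -0.083 in B1, and Egr1 in A2 at 0.14.

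By cluster class, the ratio of ending A (0.17) was -0.036 at resolution 2, 0.14 with the 10 genes and companions kept in the clustering, 0.12 when thinned, 0.35, 0.56 and 0.42 in A1, A2 and A3 alone, and 0.28 without cluster cA11. That of ending B (0.05) was 0.15 at resolution 2, 0.074 with the genes kept, 0.12 when thinned, 0.023 in B3 alone and 0.27 with Pdgfra required as a marker. Fos was at -0.017 in A and 0.090 in B at resolution 2, and at 0.29 in B with Pdgfra required. In single sets Ier2 was at 0.15 in A1, 0.25 in A2, 0.078 in A3 and -0.086 in B3, and within A3 Nr4a1 was at 0.019 and Klf4 at -0.49. The cause of these changes was not tested.

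The mean share of cells with a UMI (34.8%) followed depth by construction: 22.9% at 1000 UMIs, 49.0% at 4000, 55.2% without thinning and 16.3% for 2 or more UMIs.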
